A study of Mus musculus with 40 samples.

Results

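Named pseudogenes, some of which could share reads with a parent gene, were examined in the renal cortex of Akita and WT mice. Members were chosen by name and by level, as genes whose symbol ended in -ps or in -ps and a number and whose mean over all 40 libraries was at least 10 estimated counts. This gave 105 members of 1616 genes named in this way, out of 55401 genes in all, and 786 of the 1616 had a count of 0 in every library. Because the mean count selected the members, their levels are given as a description. Just inside the limit were Vmn1r-ps47 with a mean of 10.3 counts, Cts8-ps with 10.9 and Cyp2j15-ps with 10.9. Just outside were Rpl10-ps6 with 9.98, Rpl38-ps2 with 9.95 and Fth-ps2 with 9.68.

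All mice were male C57BL/6J. Akita mice were Ins2-Akita heterozygous, carrying a dominant mutation of an insulin gene that leads to loss of beta cell function, and WT mice were their littermates. In the ethanol arm, mice of both genotypes received daily by gavage either 10% ethanol in water or MitoGamide at 10 mg/kg in that vehicle, from 6 to 22 weeks of age. In the water arm, both genotypes received water or MitoQ, whose dose the labels do not give. The labels attach the same ages of 6 and 22 weeks to this arm, in a protocol that does not mention MitoQ. MitoGamide is a mitochondria-targeted scavenger of reactive dicarbonyls and MitoQ a mitochondria-targeted antioxidant. Each of the 8 groups held 5 mice, with 1 library per animal, so that the spread within a group is between libraries of different animals. In such bulk tissue, fewer cells of a type and less RNA per cell cannot be told apart.

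A pseudogene is a copy of a gene that has lost the ability to make the original protein. Processed pseudogenes arise when a messenger RNA is copied back into the genome, so that they lack introns, and genes with abundant messenger RNA such as those of ribosomal proteins have left many. Unprocessed pseudogenes arise by duplication of the gene with its introns, and unitary pseudogenes are genes that lost their function without a copy. Some are transcribed. A short read from a stretch that copy and parent share fits both, and pseudoalignment with kallisto, which made these counts, divides such reads by an estimate of the abundance of each transcript.

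Of the 105 members, GENCODE M21 lists 57 as processed pseudogenes (8 of them transcribed), 21 as transcribed unprocessed, 7 as unprocessed and 2 as transcribed unitary pseudogenes. A further 15 are listed there as protein coding and 3 as long non-coding RNA (2 lincRNA and 1 from a bidirectional promoter). By name, 26 members derive from cytosolic ribosomal protein genes and 18 are olfactory or vomeronasal receptor genes. The symbol without its suffix was present for 66 members, which point to 62 parent genes. For the other 39, including Adh6-ps1, Slc2a4rg-ps and Eif4a-ps4, no parent of that symbol was in the table, and no ratio was formed.

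How far copy and parent can be separated was measured from the annotated transcripts, as the share of a member's 31-mers (runs of 31 bases, the default unit matched by kallisto) that occurred in its parent or in any other gene on either strand. In 18 members every 31-mer occurred in the parent. Altogether 22 members had no 31-mer of their own, 32 had up to 20% of their own and 51 had more than 20%. These 4 pairs are shown because the results turn on them, as stretches of the coding sequence written 5′ to 3′ on the coding strand from GENCODE M21 and GRCm38, with capitals for bases that differ between copy and gene. Ube2n-ps1 (chr5:76232981-76233070, minus strand) stands for the copies that cannot be separated, since all of its 429 31-mers are in Ube2n and all 459 coding bases are identical.
Ube2n-ps1 and Ube2n: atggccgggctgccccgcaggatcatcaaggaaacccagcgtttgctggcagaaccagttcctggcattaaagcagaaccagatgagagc

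Rps7-ps3 (chrX:152909998-152910117, minus strand) and Rps7 (chr12:28635440-28635651, minus strand, spanning an intron) differ at 3 of 585 coding bases, all within the 120 shown. Over its whole annotated length, which runs beyond the coding bases, Rps7-ps3 has 98 31-mers that occur in no other gene.
Rps7-ps3: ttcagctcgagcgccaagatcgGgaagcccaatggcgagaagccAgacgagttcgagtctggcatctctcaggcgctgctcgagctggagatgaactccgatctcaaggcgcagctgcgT
Rps7: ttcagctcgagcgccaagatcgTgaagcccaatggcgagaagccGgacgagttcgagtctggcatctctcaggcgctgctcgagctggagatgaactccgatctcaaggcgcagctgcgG

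Rpl14-ps1 (chr7:45325268-45325387, plus strand, within an intron of Trpm4 on the opposite strand) and Rpl14 (chr9:120573767-120574163, plus strand) have 4 mismatches and 3 gap bases over the 654 coding bases of Rpl14 (98.9% identity), and the 120 bases shown hold 2 of the mismatches. Rpl14-ps1 kept 91 31-mers of its own.
Rpl14-ps1: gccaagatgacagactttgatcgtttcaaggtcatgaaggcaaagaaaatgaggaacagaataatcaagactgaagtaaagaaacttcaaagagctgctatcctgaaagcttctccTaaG
Rpl14: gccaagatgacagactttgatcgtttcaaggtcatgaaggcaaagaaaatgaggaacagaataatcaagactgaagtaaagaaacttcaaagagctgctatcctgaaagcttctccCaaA

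Rpl36a-ps3 (chr6:136488812-136488931, plus strand) is shown because its name and its sequence point to different genes. It shared 0% of its 31-mers with Rpl36a (chrX:134586080-134586526, plus strand), from which it differs at 19 of the 120 bases shown. It shared 89.3% with Rpl36al (chr12:69183012-69183131, minus strand), from which it differs at 1 of 321 coding bases. The capital in the first 2 sequences marks this base, and the capitals in Rpl36a mark its differences from Rpl36a-ps3.
Rpl36a-ps3: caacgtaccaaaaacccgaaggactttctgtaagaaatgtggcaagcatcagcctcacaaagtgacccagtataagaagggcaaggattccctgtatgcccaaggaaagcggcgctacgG
Rpl36al: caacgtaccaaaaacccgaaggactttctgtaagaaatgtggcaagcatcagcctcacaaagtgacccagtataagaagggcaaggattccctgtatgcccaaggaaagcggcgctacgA
Rpl36a: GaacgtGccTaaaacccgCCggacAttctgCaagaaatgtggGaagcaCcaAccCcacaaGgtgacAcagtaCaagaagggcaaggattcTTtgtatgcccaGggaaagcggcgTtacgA

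The libraries held 9106654 to 24321424 estimated counts. Markers of the proximal tubule were high in every library, with Lrp2 at 2296 to 7450 CPM (counts scaled to a common library size of 1e6 after TMM normalization) and Slc34a1 at 2227 to 4635 CPM, and markers of the thick ascending limb, distal tubule, collecting duct, podocyte and endothelium were detected in every library. Markers of other cells were detected too. Of leukocyte genes, Ptprc (9.76 to 26.0 CPM), Lyz2 (median 7.87 CPM) and Cd3e (median 0.42 CPM) were at 0 in no library and Cd79a in 7, of adipocyte genes Adipoq was at 0 in 21 libraries and Plin1 in 1 (up to 4.52 CPM), of liver genes Alb ranged from 1.98 to 292 CPM and Apoa1 was at 0 in 3 libraries, and the red cell gene Hbb-bs ranged from 96.5 to 882 CPM. By the median correlation of their log2 CPM with the other libraries, 3 libraries stood apart, WT MitoQ replicate 3 (0.909), Akita water replicate 2 (0.930) and WT water replicate 3 (0.934), all in the water arm. In the ethanol arm the lowest was Akita MitoGamide replicate 5 (0.953), and the next was WT MitoGamide replicate 1 (0.974). The summed level of the 62 parents was 3118 to 7802 CPM over the libraries of the water arm and 6297 to 8368 CPM over those of the ethanol arm. That of the members was 787 to 1290 CPM and 1108 to 1415 CPM, so that both were lower and more scattered in the water arm.

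The members differed in how steadily they were counted. A count of 0 in at least 1 library was seen in 34 members. It occurred in 11 of 22 members without a 31-mer of their own, in 19 of 32 with up to 20% and in 4 of 51 with more than 20%, although the first class had the highest median of mean counts (103, against 43.1 and 31.1). Rpl10a-ps1 was at 0 in 32 of 40 libraries and reached 253 counts in another, Rpl3-ps1 was at 0 in 31 and reached 274, Rps16-ps2 was at 0 in 25 and reached 394, and Rps13-ps2 was at 0 in 17 and reached 172.

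**Figure D1:**
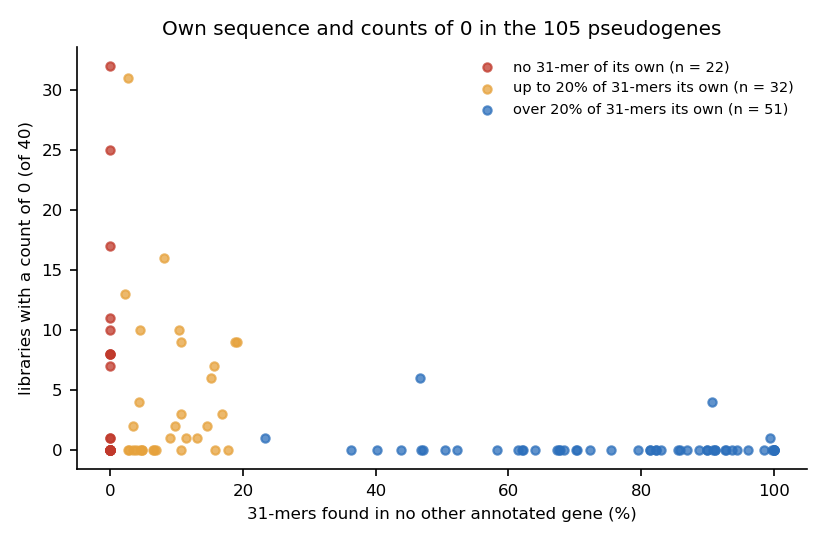
Each point is 1 of the 105 pseudogenes, with the percentage of its 31-mers found in no other annotated gene on the x axis and the number of the 40 libraries in which its count was 0 on the y axis. Counts of 0 in 10 or more libraries occurred in 5 of the 22 pseudogenes without a 31-mer of their own, 5 of the 32 with up to 20% and 0 of the 51 with more than 20%.

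The most abundant members were copies of ribosomal protein genes and of Tpt1, which encodes translationally controlled tumour protein. Per kilobase of exon, Tpt1-ps3 had a mean of 212 CPM and its parent Tpt1 222, Rps23-ps1 183 and Rps23 19.8, Rpl10-ps3 166 and Rpl10 27.4, Rpl28-ps1 166 and Rpl28 36.1, and Rps7-ps3 108 and Rps7 20.2. These values divide by all annotated exons of a gene, which are more than its messenger RNA holds where several transcripts are annotated. By counts not divided by length and summed over the 40 libraries, Rpl28-ps1 had 1.02 times the counts of Rpl28, and it was above Rpl28 in 23 of 40 libraries. Rps23-ps1, whose 31-mers all occur in Rps23 and whose exon overlaps that of Gm5148 on the opposite strand, held between 2.22 and 4.76 times the counts of Rps23 and was above it in 40 of 40 libraries. Whether the counting used strand is not given in the sources used here, and reads of overlapping genes on opposite strands may not be separated. Over the 66 pairs, the member exceeded the parent in most libraries in 10, and the within-group SD of log2(CPM + 0.5) had a median of 0.62 for members, 0.37 for parents and 0.34 for the sum of both.

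The parent that moved most plainly against its copy was Mrpl23, a protein of the large subunit of the mitochondrial ribosome. In Akita mice on ethanol, Mrpl23-ps1 had 0, 6.75, 0, 0 and 0 CPM and Mrpl23 had 11.3, 5.31, 9.82, 8.93 and 10.2 CPM. In WT mice on ethanol, Mrpl23-ps1 had 9.10, 2.39, 0, 1.65 and 3.53 CPM and Mrpl23 had 0.51, 7.52, 8.36, 6.28 and 4.83 CPM. The libraries with the highest Mrpl23-ps1 had the lowest Mrpl23 in each group, but the order was not strict, since WT replicate 2 had more of both than WT replicate 4. Their sum was 11.3, 12.1, 9.82, 8.93 and 10.2 CPM in Akita mice and 9.61, 9.91, 8.36, 7.92 and 8.36 CPM in WT mice, so that the groups, which overlapped for each row alone, still overlapped but with a much smaller spread. Over all groups the within-group SD of log2(CPM + 0.5) was 1.68 for Mrpl23-ps1, 0.97 for Mrpl23 and 0.18 for the sum.

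Correlations with the parent over the 40 libraries covered nearly the whole range. Of 66 pairs, 42 had a Spearman coefficient above 0 and 24 one below 0, with a median of 0.15. On values centred by group the median was 0.059. The lowest was that of Mrpl23-ps1 with Mrpl23 (rho = -0.90, Pearson r = -0.83, permutation p = 1e-05 for each, the smallest that the permutations can give, n = 40), and r was -0.84 without the 2 libraries farthest from the median of Mrpl23 and -0.83 on values centred by group. Of the 17769 genes that averaged 10 or more counts over all libraries, Mrpl23 was the one least like Mrpl23-ps1 in this measure. The highest was that of Pisd-ps1 with Pisd, a phosphatidylserine decarboxylase of mitochondria (rho = 0.94, r = 0.96, permutation p = 1e-05 for each, n = 40; r = 0.96 without the 2 farthest libraries and 0.95 centred by group), and no other gene was more like Pisd-ps1. Here 21.8% of the 31-mers were in Pisd and 1278 occurred in no other gene. The libraries share their depth and the composition described above, and p-values are for a pair picked as an extreme of 66.

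**Figure D2:**
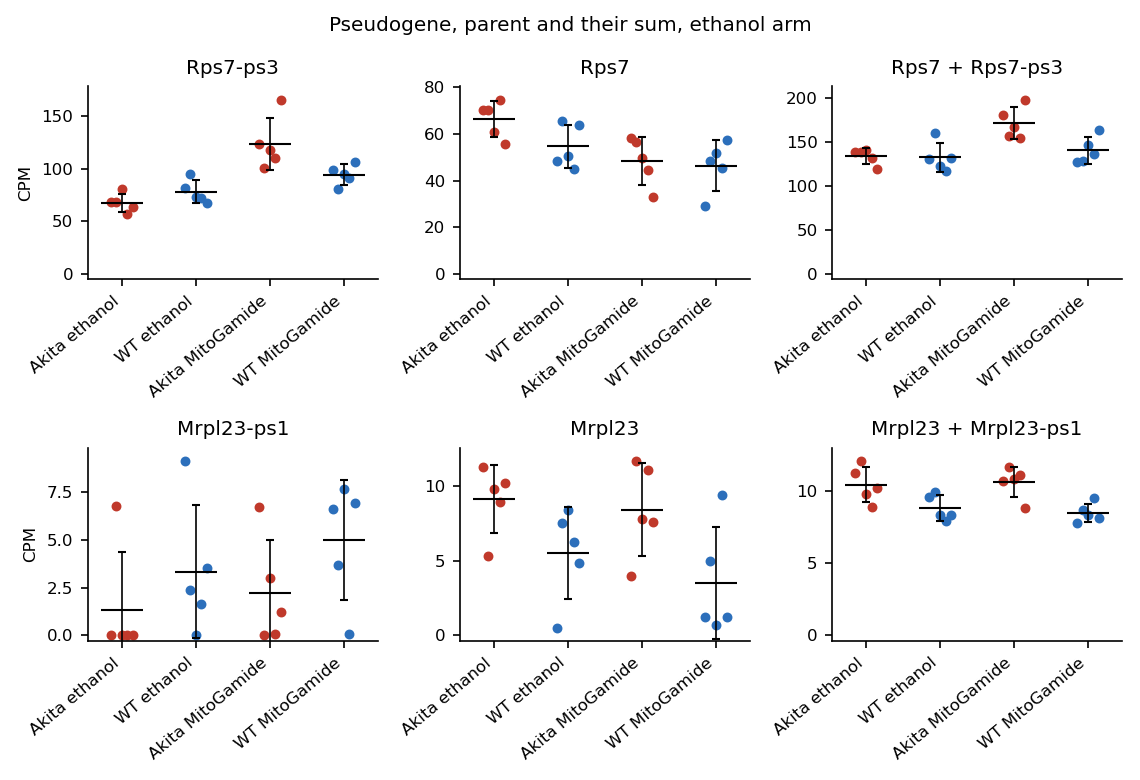
Points are the CPM of single libraries in the 4 groups of the ethanol arm (red, Akita; blue, WT), with the mean and SD of 5 libraries, for a pseudogene, its parent and the sum of both. The sum of Mrpl23 and Mrpl23-ps1 lay between 7.82 and 12.1 CPM in all 20 libraries, while Mrpl23-ps1 alone ranged from 0 to 9.10 CPM.

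The first comparison asked how diabetes changed the members on the ethanol vehicle. Of the 105 members, 97 passed the filter of a mean of 10 counts over these 10 libraries, and 10 were called by edgeR (2 higher and 8 lower in Akita), which is 10.3% of those tested, against 16.4% of all 17747 genes. Of these 10, 4 averaged under 10 counts in 1 of the 2 groups and passed the filter through the other. A single fit of all 40 libraries called 5 members and 873 of all genes (4.92%). The median log2 fold change was -0.12 over the members and -0.0021 over all genes. Among the ribosomal protein copies 1 rose and 3 fell of 23 tested, among receptor pseudogenes 0 of 16 were called, and among the remaining members 1 rose and 5 fell of 58. The second comparison asked the same on water, where 1 of 103 members tested was called (0.971%) against 0.552% of 18304 genes, and without Akita water replicate 4 this call was lost.

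MitoGamide was then compared with its vehicle in Akita mice. Of 89 members tested, 9 were called (7 higher and 2 lower), which is 10.1%, against 1.26% of 17051 genes, and 2 of the 9 averaged under 10 counts on vehicle. The median log2 fold change of the members was -0.11, while that of all genes was -0.0021. Ribosomal protein copies counted 3 higher and 1 lower of 21 tested, receptor pseudogenes 0 of 12, and the others 4 higher and 1 lower of 56. Both this comparison and that of diabetes on ethanol use the same 5 libraries of Akita mice on ethanol, and their values are therefore set side by side without a measure of agreement. The calls with MitoGamide depended on single libraries. A fit of all 40 libraries together called 1 member and 41 of all genes (0.24%). Without Akita ethanol replicate 1 or 2, 0 members were called, without replicate 3 or 4, 1 was called and without replicate 5, 2, while leaving out Akita MitoGamide replicate 2 or 4 left 4 and leaving out replicate 5 gave 13. The calls over all genes moved with them. They numbered 0 to 4 in the 5 fits without an Akita ethanol library, 13 and 30 without Akita MitoGamide replicate 2 and 4, and 802 without replicate 5.

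Rps7-ps3 was the most abundant member called. It had 68.2, 68.4, 80.2, 57.0 and 63.3 CPM in Akita mice on ethanol and 123, 100.4, 117, 110.0 and 165 CPM in Akita mice on MitoGamide. All MitoGamide libraries lay above all vehicle libraries, with a log2 fold change of 0.87 ± 0.13 (SE, edgeR adjusted p = 0.0264, n = 5 per group). In WT mice its level was 77.9 ± 10.8 CPM on ethanol and 94.2 ± 9.64 CPM on MitoGamide (SD, n = 5 each).

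Its parent Rps7, a protein of the small ribosomal subunit, went the other way, though not past the threshold. Rps7 had 70.2, 70.5, 61.0, 74.6 and 55.7 CPM on vehicle and 58.1, 56.5, 49.6, 44.7 and 33.0 CPM on MitoGamide in Akita mice. The groups overlapped, and the log2 fold change was -0.44 (edgeR adjusted p = 0.115). With the counts of Rps7-ps3 added, the sum was 138, 139, 141, 132 and 119 CPM on vehicle and 181, 157, 167, 155 and 198 CPM on MitoGamide, groups that did not overlap (log2 fold change 0.36 ± 0.08 SE, edgeR adjusted p = 0.0477). This call of the sum was kept in 1 of 10 fits that each left out 1 library, with adjusted p between 0.0279 and 0.127, while its log2 fold change stayed between 0.32 and 0.40.

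The log2 ratio of Rps7-ps3 to Rps7 rose by 1.33 with MitoGamide in Akita mice (two-sided exact permutation test, p = 0.00794, the smallest that 5 against 5 libraries allow) and by 0.53 in WT mice (exact p = 0.0159). It was 0.49 lower in Akita than in WT mice on ethanol (difference -0.49, exact p = 0.0238). The scaling of a library cancels in such a ratio of counts, to which 0.5 had been added. These p-values are not adjusted. Over 66 pairs and 6 comparisons, 42 of 396 ratio tests had p under 0.05, 21 with MitoGamide in Akita mice (14 higher, 7 lower), 11 for Akita against WT mice on ethanol (4 higher, 7 lower), 6 with MitoGamide in WT mice and 4 in the 3 comparisons of the water arm.

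Rpl14-ps1 was called for Akita against WT mice on ethanol and with MitoGamide in Akita mice. It had 20.95, 23.1, 15.92, 24.4 and 17.3 CPM in WT mice on ethanol, 13.3, 12.1, 10.95, 9.34 and 15.85 CPM in Akita mice on ethanol and 24.2, 28.1, 32.7, 33.6 and 31.6 CPM in Akita mice on MitoGamide. Akita libraries on vehicle lay below all others of these groups. The log2 fold change was -0.71 ± 0.15 (SE) for Akita against WT mice (edgeR adjusted p = 0.00605) and 1.30 ± 0.14 with MitoGamide (edgeR adjusted p = 0.00719). Rpl14, a protein of the large ribosomal subunit, was called in neither (0.14, adjusted p = 0.237 and -0.06, adjusted p = 0.746 by edgeR), nor was their sum (0.0092, adjusted p = 0.947 and 0.19, adjusted p = 0.178, by edgeR). With MitoGamide in WT mice, Rpl14-ps1 was at 26.1 ± 5.37 CPM (SD, n = 5) and was not called (log2 fold change 0.36 ± 0.15 SE, edgeR adjusted p = 0.443).

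Eif4a-ps4 has no gene named Eif4a in the table, but 97.4% of its 31-mers occur in Eif4a1, the RNA helicase of translation initiation. In Akita mice it had 28.9, 29.7, 32.3, 28.7 and 28.3 CPM on vehicle and 47.9, 41.4, 43.0, 43.8 and 66.0 CPM on MitoGamide. The groups did not overlap (log2 fold change 0.72 ± 0.11 SE, edgeR adjusted p = 0.0264), whereas Eif4a1 had a log2 fold change of -0.02 ± 0.10 (SE, edgeR adjusted p = 0.947).

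Ube2n-ps1 and Ptges3-ps, whose 31-mers all lie in their parents, fell in Akita mice and rose with MitoGamide. Ube2n encodes a ubiquitin-conjugating enzyme and Ptges3 a co-chaperone. Ube2n-ps1 had 12.8, 14.1, 9.84, 8.90 and 9.47 CPM in WT mice on ethanol, 8.47, 6.34, 6.78, 6.38 and 8.63 CPM in Akita mice on ethanol and 11.8, 14.8, 12.9, 14.7 and 15.9 CPM in Akita mice on MitoGamide. Akita vehicle libraries lay below both other groups, with log2 fold changes of -0.57 ± 0.15 (SE, edgeR adjusted p = 0.0173) and 0.94 ± 0.12 (SE, edgeR adjusted p = 0.0224).

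Ptges3-ps had 9.61, 12.8, 9.52, 7.13 and 10.3 CPM in WT mice on ethanol, 5.65, 6.81, 7.42, 5.15 and 5.65 CPM in Akita mice on ethanol and 8.58, 10.7, 10.2, 9.81 and 11.5 CPM in Akita mice on MitoGamide. A single WT library lay within the range of the Akita vehicle libraries, and the MitoGamide libraries lay above all of the latter. The log2 fold changes were -0.68 ± 0.15 (SE, edgeR adjusted p = 0.00700) and 0.74 ± 0.12 (SE, edgeR adjusted p = 0.0282).

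For both pairs, the counts assigned to copy and parent moved in the same direction. Reads of these copies also fit the parent, so copy and parent are not separate observations. Ube2n fell in Akita mice (log2 fold change -0.26, edgeR adjusted p = 0.00643), as did Ptges3 (-0.41, edgeR adjusted p = 0.000865). With MitoGamide the values of the parents alone were 0.22 for Ube2n (edgeR adjusted p = 0.106) and 0.27 for Ptges3 (edgeR adjusted p = 0.0505), and with the copies' counts added they were 0.40 (edgeR adjusted p = 0.0299) and 0.32 (edgeR adjusted p = 0.0344). The sums of both genes were called in 3 and 2 of the 10 fits without 1 library.

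Rpl36a-ps3 was low in Akita mice on vehicle. It had 8, 38, 25, 65 and 39 counts in WT mice on ethanol, 7, 7, 6, 2 and 0 counts in Akita mice on ethanol and 17, 57, 36, 28 and 117 counts in Akita mice on MitoGamide. The log2 fold changes were -2.92 ± 0.61 (SE, edgeR adjusted p = 0.00541) and 3.86 ± 0.69 (SE, edgeR adjusted p = 0.0314), and in CPM neither pair of groups overlapped. With a mean of 4.4 counts in Akita mice on vehicle, it passed the filter of 10 counts in both comparisons only through the group in which it was higher. Rpl36al, with which it shares its sequence, had -0.21 ± 0.07 (SE, edgeR adjusted p = 0.0535) and 0.16 ± 0.14 (SE, edgeR adjusted p = 0.513).

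Scp2-ps2, a copy of the gene for sterol carrier protein of the peroxisome, had 0.56, 0.52, 0.99, 0.091 and 0.64 CPM in Akita mice on ethanol and 3.53, 1.37, 1.36, 4.05 and 7.20 CPM on MitoGamide. The groups did not overlap (log2 fold change 2.66 ± 0.55 SE, edgeR adjusted p = 0.0438). The vehicle group averaged 9.8 counts, so that the MitoGamide group carried it past the filter. In WT mice on ethanol it had 1.67, 0.78, 0.60, 1.10 and 1.21 CPM, which overlapped with Akita mice on ethanol (log2 fold change -0.94, edgeR adjusted p = 0.154). Its exons overlap those of the lincRNA Gm47162 on the opposite strand. Scp2 was at 387 ± 18.6 CPM on vehicle and 386 ± 35.8 CPM on MitoGamide (SD, n = 5 each), with a log2 fold change of 0.0075 (edgeR adjusted p = 0.971). In WT mice on MitoGamide Scp2-ps2 ranged from 0 to 19.4 CPM, with a log2 fold change against vehicle of 2.35 (edgeR adjusted p = 0.369), and the difference between the effects in Akita and WT mice was 0.31 (edgeR adjusted p = 0.958).

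**Figure D3:**
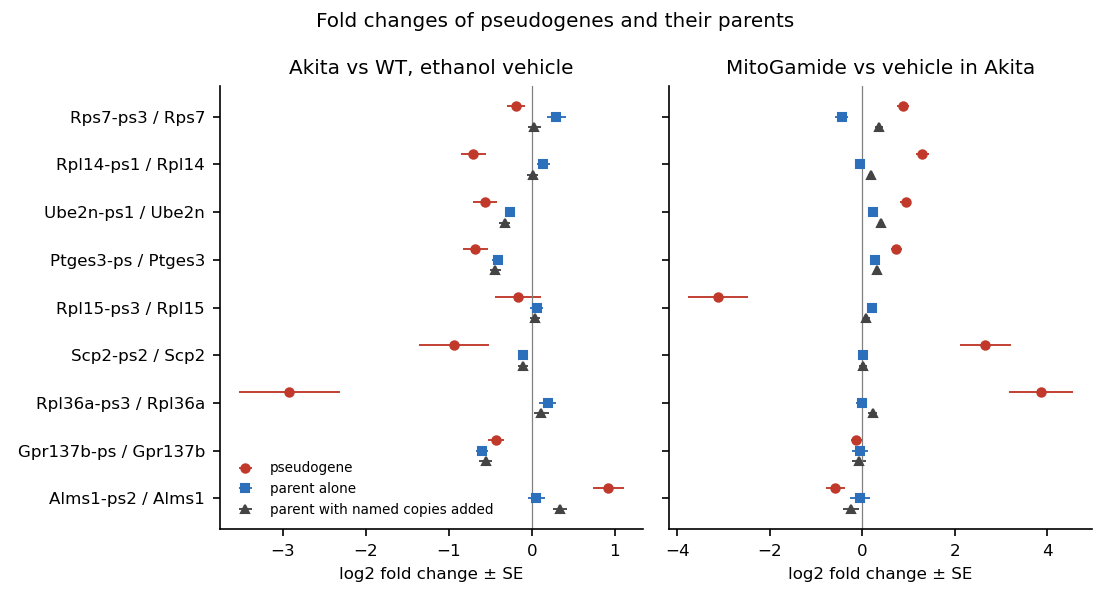
Log2 fold changes with their SE (edgeR) in 2 comparisons that share the Akita vehicle libraries, for 9 pseudogenes (red circles), their parents alone (blue squares) and the parents with the counts of their named copies added (dark triangles). With MitoGamide, Rps7-ps3 lies at 0.87 and Rps7 at -0.44, with the sum at 0.36 between them, whereas for Gpr137b in Akita against WT mice the values of -0.43, -0.60 and -0.55 lie together. The x axes differ between panels.

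A further 3 called copies, each without a 31-mer of its own, had counts of 0 in 2 or more libraries of 1 of the groups compared. Rps13-ps2 had 32, 59, 0, 29 and 38 counts in WT mice on ethanol and 0 in all 5 Akita libraries on ethanol. A single WT library was also at 0, so that the groups overlapped, and edgeR called it (adjusted p = 0.00848). It passed the filter only through the WT group. Against a floor of 3 counts over the group, the counts assigned to it were at least 51.0-fold lower in Akita mice. Without WT ethanol replicate 2, which held 59 of the 158 counts, they were at least 39.9-fold lower. All of its 31-mers occur in Rps13, so these bounds are on assigned counts and not on its own transcript. They take no account of the spread between mice. On MitoGamide, Rps13-ps2 was at 0 in 4 libraries of Akita mice and had 0 to 106 counts in WT mice. Its log2 Akita effect on ethanol minus that on water was -7.74, a difference that edgeR did not call.

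Rps16-ps2 showed the reverse. It had 183, 77, 60, 394 and 1 counts in Akita mice on ethanol and 0, 0, 5, 0 and 0 counts in WT mice on ethanol, with groups that overlapped in CPM (log2 fold change 6.95 ± 1.18 SE, edgeR adjusted p = 0.00144). It passed the filter only through the Akita group, and the size of the change rests on 5 counts in 1 WT library, with log2 fold changes of 6.23 to 10.03 when single libraries were left out. It was at 0 in all 10 libraries on MitoGamide. In Akita mice the counts assigned to it were at least 196-fold lower there than on ethanol. WT mice on MitoGamide were at least 192-fold below the same Akita ethanol group, a bound that crosses genotype and treatment. WT mice on ethanol were already near 0, so it does not measure an effect of MitoGamide in WT mice. Akita ethanol replicate 4 held 394 of the 715 counts of the Akita ethanol group, and without it the bounds were 115-fold and 112-fold. Reads of Rps16-ps2 also fit Rps16, so these bounds are on assigned counts and not on its own transcript. With MitoGamide in Akita mice the member was not called (edgeR adjusted p = 0.0566). Its log2 Akita effect on ethanol minus that on water was 8.20 and was not called (edgeR adjusted p = 0.7065).

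Rpl15-ps3 had 369, 121, 127, 284 and 280 counts in Akita mice on ethanol and 10, 30, 75, 0 and 0 on MitoGamide. The groups did not overlap (log2 fold change -3.12 ± 0.65 SE, edgeR adjusted p = 0.0445), but DESeq2 did not call it (adjusted p = 0.0717). Rpl15 was at 128 ± 13.7 CPM on vehicle and 147 ± 4.33 CPM on MitoGamide (SD, n = 5 each, edgeR adjusted p = 0.156). In the water arm Rpl15-ps3 was at 0 in 6 libraries and reached 402 counts.

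**Figure D4:**
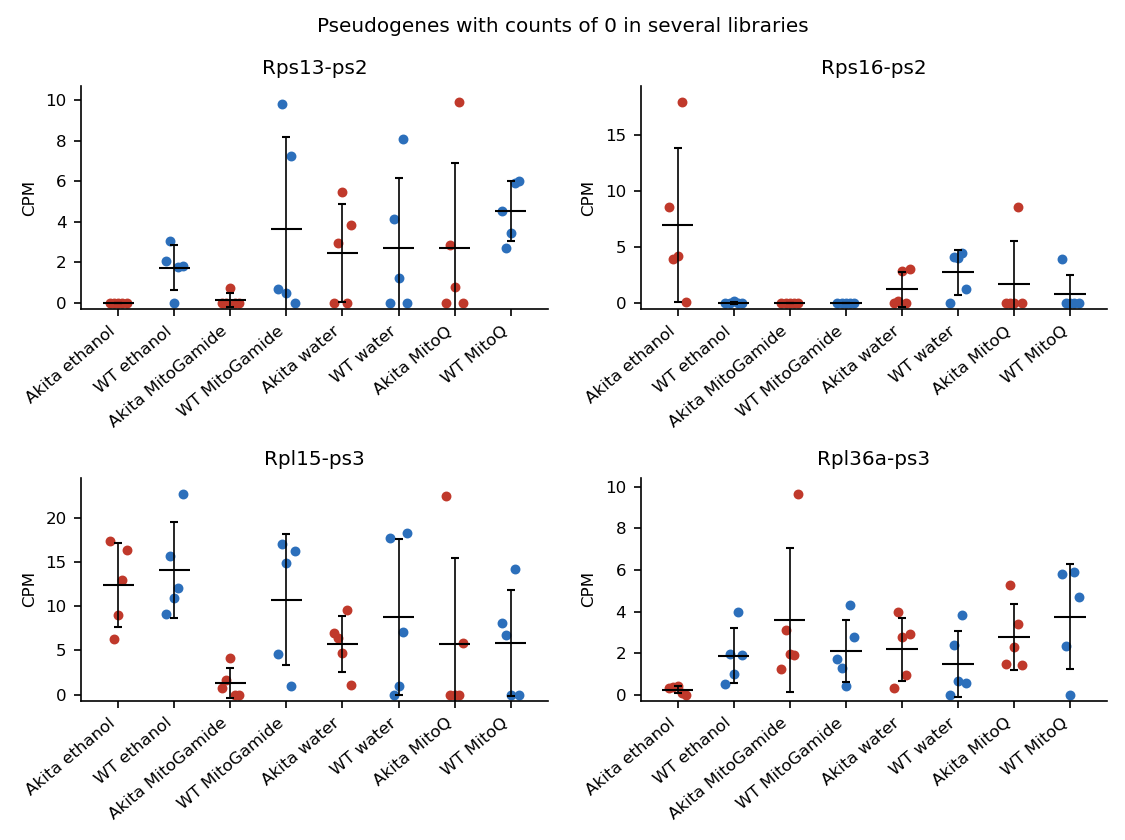
Points are the CPM of single libraries in all 8 groups (red, Akita; blue, WT), with the mean and SD of 5 libraries, for 4 pseudogenes. Rps13-ps2 was at 0 in all Akita libraries on ethanol, Rps16-ps2 in all libraries on MitoGamide, Rpl15-ps3 was at most 4.10 CPM in Akita mice on MitoGamide and Rpl36a-ps3 at most 0.42 CPM in Akita mice on ethanol.

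When each member's counts were added to its parent's, the 62 parents gave 20 calls over the 6 comparisons, against 13 for the parents alone, with 10 in common. Of the 13, 12 were among 59 parents tested for Akita against WT mice on ethanol, where 16.4% of all genes were called. The remaining 1 was among 59 tested with MitoGamide in Akita mice, where 1.26% of all genes were called. Among the 20, Nlrp5 in Akita against WT mice on ethanol (-0.56, edgeR adjusted p = 0.0218) was too low to be tested alone. Nlrp5-ps, itself called there, held a median of 94.8% of these summed counts, and 11.6% of its 31-mers occur in Nlrp5. This call therefore mostly repeats that of the copy. The median shift of the log2 fold change was 0.031. The largest, 0.99, was that of Ccnb2, a cyclin of mitosis, from 1.05 (adjusted p = 0.191) to 0.06 (adjusted p = 0.878) by edgeR. Ccnb2 averaged 10.5 counts, and Ccnb2-ps, which shares 0% of its 31-mers with it, held a median of 73.4% of the summed counts. In Akita against WT mice on ethanol, Rps16 passed from 0.22 (adjusted p = 0.111) to 0.30 (adjusted p = 0.0180) and Alms1 from 0.05 (adjusted p = 0.787) to 0.34 (adjusted p = 0.0162), all by edgeR. Rpl27 and Rps13 went the other way, from 0.44 (adjusted p = 0.0129) to 0.17 (adjusted p = 0.0631) and from 0.24 (adjusted p = 0.0273) to 0.19 (adjusted p = 0.0644), and Ncoa4 stayed at 0.30 while its adjusted p passed from 0.0437 to 0.0545.

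Counts of 0 were rarer in members with more than 20% of their 31-mers of their own, but Adh6-ps1 was among the 4 of 51 that had any. Adh6-ps1, a transcribed unprocessed pseudogene of the alcohol dehydrogenase family with 2693 of 2969 31-mers found nowhere else, was the one member called on both vehicles. It had 3, 2, 6, 5 and 8 counts in Akita and 13, 23, 21, 47 and 18 counts in WT mice on ethanol, and in CPM all Akita libraries lay below all WT libraries (log2 fold change -2.28 ± 0.48 SE, edgeR adjusted p = 0.00604). On water the levels were 0.24, 0.80, 0.74, 0.34 and 0.13 CPM in Akita mice and 3.44, 2.01, 3.56, 2.76 and 2.03 CPM in WT mice, again without overlap (-2.60 ± 0.41 SE, edgeR adjusted p = 0.0167). The Akita groups averaged 4.8 and 6.4 counts, so that it passed the filter only through the WT groups.

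The same held in the treated groups, which no test of genotype here covered. Adh6-ps1 had 2, 0, 0, 0 and 0 counts in Akita mice on MitoGamide and 19, 15, 12, 24 and 32 in WT mice on MitoGamide. In the MitoQ groups its mean was 0.32 ± 0.16 CPM in Akita mice and 4.21 ± 3.44 CPM in WT mice (SD, n = 5 each). The call on water was lost without the 3 libraries that stood apart, where the log2 fold change was -2.71 (edgeR adjusted p = 0.0626). The genes most like Adh6-ps1 over the 40 libraries, of 17769, were Gm43158 (Spearman rho = 0.90), Ttbk1 (0.89) and Gm31774 (0.89). Gm43158 holds 7.81% of the 31-mers of Adh6-ps1 and was itself lower in Akita mice on ethanol (log2 fold change -3.52, edgeR adjusted p = 0.000619) and on water (-3.21, edgeR adjusted p = 0.000668).

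Gpr137b-ps followed its parent. Gpr137b encodes a membrane protein of lysosomes, and 36.6% of the 31-mers of the pseudogene occur in it. On ethanol Gpr137b-ps had 44.6, 39.8, 37.4, 49.2 and 43.2 CPM in the Akita group and 66.9, 48.9, 56.7, 67.0 and 52.9 CPM in WT mice, where the highest Akita library was just above the lowest WT library (log2 fold change -0.43 ± 0.10 SE, edgeR adjusted p = 0.00836). The level of Gpr137b was 102 ± 5.22 CPM in the Akita group and 157 ± 16.8 CPM in the WT group (SD, n = 5 each, log2 fold change -0.60, edgeR adjusted p = 0.000171). Their Spearman coefficient over the 40 libraries was 0.89.

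**Figure D5:**
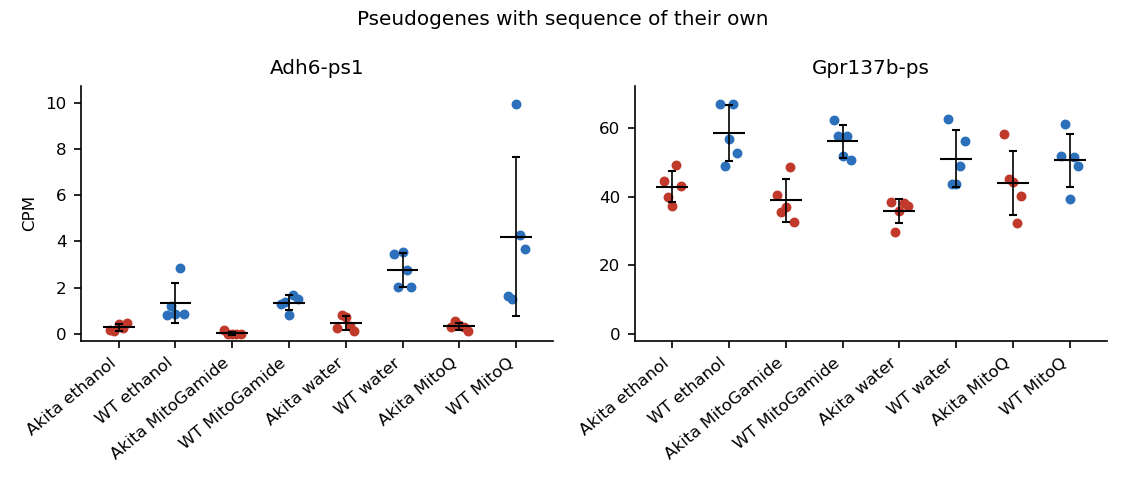
Points are the CPM of single libraries in all 8 groups (red, Akita; blue, WT), with the mean and SD of 5 libraries. Adh6-ps1 was at most 0.80 CPM in any Akita library and at least 0.82 CPM in every WT library, and Gpr137b-ps averaged 35.8 to 44.1 CPM in the Akita groups and 50.6 to 58.5 CPM in the WT groups.

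Alms1-ps2 was the other member that rose in Akita mice on ethanol. Alms1 encodes a protein of the centrosome and the base of cilia, and 73.0% of the 31-mers of Alms1-ps2 occur in it. The pseudogene had 11.4, 11.0, 7.98, 12.2 and 9.67 CPM in Akita mice and 4.29, 3.89, 7.08, 8.04 and 4.64 CPM in WT mice, with an overlap of 1 library each (log2 fold change 0.92 ± 0.19 SE, edgeR adjusted p = 0.00479). Alms1 alone was at 16.3 ± 2.37 and 15.8 ± 1.73 CPM (SD, n = 5 each).

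Nlrp5-ps is derived from a gene active in oocytes and overlaps exons of the vomeronasal receptor gene Vmn1r90 on the same strand, which holds 39.1% of its 31-mers. It had 2.63, 2.99, 2.47, 2.005 and 2.45 CPM in Akita mice and 4.04, 2.80, 4.28, 4.21 and 3.96 CPM in WT mice on ethanol, where 1 WT library lay within the Akita range (log2 fold change -0.60 ± 0.15 SE, edgeR adjusted p = 0.0174). Nlrp5 itself averaged between 0.076 and 0.33 CPM in the 8 groups.

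Slc2a4rg-ps, a unitary pseudogene that shared none of its 3110 31-mers with another gene, was the one member with more than 20% of its 31-mers of its own that was called with MitoGamide. It had 3.01, 2.99, 4.24, 4.92 and 3.96 CPM in Akita mice on vehicle and 2.74, 1.86, 1.53, 1.65 and 1.49 CPM on MitoGamide, without overlap (log2 fold change -1.04 ± 0.21 SE, edgeR adjusted p = 0.0438). In WT mice it was at 3.49 ± 0.92 CPM on vehicle and 2.87 ± 0.73 CPM on MitoGamide (SD, n = 5 each). In the same comparison in Akita mice, the summed level of 1472 olfactory and vomeronasal receptor genes was 452 to 764.5 CPM on MitoGamide and 693 to 888 CPM on vehicle, and that of the 18 receptor pseudogenes was 27.1 to 48.6 CPM and 41.5 to 53.8 CPM. The summed level of 94 ribosomal protein genes was 9147 to 10332.5 CPM on MitoGamide and 8472 to 9923 CPM on vehicle. Their part in the calls was not tested.

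The genes most like 3 other called members, by Spearman coefficient over the 40 libraries, were not their parents. For Rps7-ps3 they included Cops2 and Sf3b6 (0.96 each), for Rpl14-ps1 they were Srr (0.92), Tpt1 (0.91) and Arpc2 (0.91), and for Ube2n-ps1 Aff4 (0.91), Tmx3 (0.91) and Ppp4r2 (0.91).

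The other comparisons called no member. With MitoGamide in WT mice, edgeR called 0 of 96 members tested and 0% of 17395 genes, DESeq2 called 0 members and 11 had an unadjusted p under 0.05 (edgeR), against 10.6% of all genes tested, and without WT MitoGamide replicate 5, edgeR called 1. MitoQ gave 0 of 100 members and 0% of 18496 genes in Akita mice and 0 of 98 members and 0% of 17881 genes in WT mice by edgeR, 0 members by DESeq2, and 4 and 3 members with an unadjusted p under 0.05, against 1.96% and 3.22% of all genes tested. The difference of the MitoGamide effect between Akita and WT mice was called for 0 of 94 members and 0% of 17256 genes, that of the MitoQ effect for 0 of 101 members and 0% of 18225 genes, and that of the Akita effect between the vehicles for 0 of 105 members and 0% of 18050 genes (edgeR, with 19, 1 and 6 members at an unadjusted p under 0.05, against 8.32%, 1.14% and 4.25% of all genes tested, and 0 members by DESeq2). No effect in Akita mice was therefore shown to differ from that in WT mice.

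Across all 8 groups, a difference anywhere was called for 68 of 105 members (64.8%), against 64.3% of 17769 genes. By sequence, these were 10 of 22 members without a 31-mer of their own, 18 of 32 with up to 20% and 40 of 51 with more than 20%. This test includes the difference between the ethanol and the water arm, and a difference between the arms in treatment cannot be told apart from one between their libraries.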

How the data were processed

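RNA from the renal cortex of individual mice was depleted of rRNA and sequenced by the authors. The deposited values are estimated counts per gene, which the authors made with kallisto 0.46.1 on a GENCODE mouse transcriptome (GRCm38) and summed from transcripts to genes, read into R 4.0.2, and they are whole numbers. All 40 columns were matched to a sample by name, and 0 columns were left unused. Before counting, the authors removed low-quality bases with Skewer, and for their own tests they dropped genes with low average counts, which the deposited table still holds. Whether counting used strand is not given in the sources used here.

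The members and gene lists were chosen with earlier results of these data known. Comparisons used edgeR 4.0.16 in R 4.3.3 (quasi-likelihood test, TMM factors, the 10 libraries of each comparison, genes averaging 10 or more counts there, Benjamini-Hochberg adjustment over all genes tested, threshold 0.05), interactions used the 4 groups concerned, and the test of any difference used all 40 libraries. Log2 ratios of member to parent (0.5 counts added) were compared by exact permutation. CPM are counts per 1e6 of the library size multiplied by its TMM factor over all 40 libraries. Alternatives were DESeq2 1.42.0, another scaling, no filter, 1 fit of all libraries, a replicate block, a pseudocount of 5, leaving out single libraries and, chosen after seeing the data, leaving out the 3 libraries that stand apart, single libraries for sums of copy and parent, and the library with most counts for bounds. On simulated data for MitoGamide in Akita mice (16837 genes), 68.1% of 2-fold and 95.9% of 4-fold changes were recovered, and 6.55% of calls were unchanged genes.

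Sequence sharing came from GENCODE M21, which holds 99.53% of the gene identifiers and is not the authors' release. Of the members, 11 have another name there (Rps7-ps3 is Gm6472). Genes were named where called in a comparison of treatments or genotypes, where among the 5 with the highest mean count, at the limit of 10 counts or at an extreme of correlation with the parent, together with their parents and, for 4 members, the 3 most similar genes, of which 1 is not reported here. The members with counts of 0 in the most libraries, and those without a call whose ratio is given, were chosen after their values were seen. Samples were grouped by their labels, and p-values measure the spread between mice.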

Additional observations from a re-analysis of the deposited data

Results flagged for a closer look

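In groups of 5, a library far from the others was looked for in 36 combinations of a called member and a group, and 5 were found, where chance gives about 1 in 20. Adh6-ps1 was at 2.86 CPM in WT ethanol replicate 4, against a median of 0.85 in the other 4. Eif4a-ps4 was at 66.0 CPM in Akita MitoGamide replicate 5 (43.4 in the others), and so was Rpl36a-ps3, at 9.68 CPM (1.94 in the others). Nlrp5-ps was at 2.80 CPM in WT ethanol replicate 2 (4.12 in the others), and Rps16-ps2 at 0.2 CPM in WT ethanol replicate 3, where the others were at 0.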

How the results depend on the processing

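The number of members called for Akita against WT mice on ethanol was 10, with 5 in a single fit of all 40 libraries and 10 to 11 when single libraries were left out. On water it was 1, with 2 by DESeq2, 0 without the 3 libraries that stand apart and 0 to 1 without single libraries. In the fit of all libraries it was 3 on water, where 543 of 18304 genes (2.97%) were called. With MitoGamide in Akita mice it was 9, with 1 in the fit of all libraries, 0 to 13 without single libraries, and in WT mice 0 to 1. Parents with their copies added gave 20 calls and parents kept apart 13. Ratio tests with p under 0.05 numbered 42, or 36 to 46 without single libraries, and the test of any difference called 68 members, or 58 to 74. The cause of these changes was not tested. For single members, 75 of 101 values under other settings stayed on their side of the threshold and 26 lost the call, and without single libraries 145 of 200 stayed and 55 lost it. For sums of copy and parent, 36 of 60 stayed without single libraries and 24 lost the call. In all of these, 0 changed direction.

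With the replicate number as a block, 9 members were called for Akita against WT mice on ethanol, 0 on water and 0 with MitoGamide in Akita mice. The labels do not say that numbers pair the mice, and same-numbered libraries deviated together with correlations from -0.45 to 0.66. Low counts limit copies such as Adh6-ps1, and reads shared with a parent limit those without a 31-mer of their own.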
